A study of Drosophila melanogaster with 6 samples.

Results

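The cytochrome P450 family of Drosophila melanogaster was described here in fly heads, as the genes whose FlyBase symbol is Cyp followed by a family number, a subfamily letter and, in most cases, a gene number. The deposited tables listed 79 such genes among 11922 gene identifiers, and 68 of the 79 reached a mean of 0.5 FPKM over the 6 samples and were tested between diets. FPKM is a fragment count scaled to the length of the transcript and to the mapped total of the sample, so that levels can be set side by side between genes. The 6 samples were heads with associated tissues of wild-type (WT) virgin females of the Oregon-R strain, labelled as 5 days of age. In 3 samples the flies had fed on normal food (ND), and in 3 they had fed for 5 d on a high-fat diet (HFD) made by adding 20% coconut oil to that food, with 25 flies pooled in each sample. No allele, transgene or drug was part of either group, and the comparison asked which mRNAs of the head differed between the diets. The design holds 1 strain, 1 sex and 1 time point.

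Cytochrome P450s are heme enzymes that use electrons from a partner reductase to insert an oxygen atom into a fatty acid, steroid, hydrocarbon or foreign compound. Insect P450s are grouped in 4 clans, to which the members were assigned here by family number from general knowledge. The CYP3 clan holds many of the enzymes that detoxify insecticides and plant compounds, the CYP4 clan holds fatty acid hydroxylases and the enzymes that finish cuticular hydrocarbons, and the mitochondrial and CYP2 clans hold enzymes of ecdysteroid metabolism beside others of less known function. In the fly head, P450 mRNA can come from the fat body, glia, sensory organs, muscle, cuticle and any gut tissue collected with the head, and in such bulk samples fewer cells of a type and less RNA per cell cannot be told apart.

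The files gave no read totals. Depth was estimated from the step that 1 fragment adds to the low FPKM values, which gave 5.30 to 11.8 M fragments (M, mega) per sample, with HFD replicate 2 the shallowest. ND replicate 3 and HFD replicate 2 stood apart before any diet comparison. Over the 8362 genes tested, ND replicate 3 correlated with the other 5 samples at r = 0.842 to 0.9203 and HFD replicate 2 with the remaining 4 at 0.934 to 0.954, against 0.971 to 0.979 among those 4. Of 11 midgut markers 9 had values, and their summed level was 73.2 FPKM in ND replicate 3 against up to 19771 FPKM in the other ND samples and 5740 to 16956 FPKM in the HFD samples. In ND replicate 3 the midgut markers Jon65Aiv and PGRP-SC1a were at 0, as they were in no other sample. Npc2d was at 0 in every sample but ND replicate 1. The markers of the head tissues were present in every sample, with summed levels of 13789 to 19324 FPKM for 4 photoreceptor genes, 848 to 1074 FPKM for 4 glial genes and 160.2 to 226 FPKM for 3 neuronal genes. Of 4 oenocyte markers 2 had values, and these, eloF and Fad2, summed to at most 0.186 FPKM. The 2 male reproductive tract markers with values were at 0.

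Member levels went from 0 to 733 FPKM in a single sample. Means over the 6 samples were at least 100 FPKM for 9 members, between 10 and 100 for 34, between 1 and 10 for 20, between 0.5 and 1 for 5, and below 0.5 for 11. Cyp6a17, Cyp6a18 and Cyp310a1 were listed at 0 in all 6 samples. The other 8 below the filter were Cyp6d2, Cyp4g1, Cyp12d1-d, Cyp316a1, Cyp313a2, Cyp313a5, Cyp313a3 and Cyp4ad1. The family summed to 0.637% to 0.758% of all FPKM. The 3 most abundant members carried 36.0% of that sum and the 10 most abundant 66.1%. By clan, the 34 CYP3 members carried 72.4%, the 32 CYP4 members 19.9%, the 9 mitochondrial members 5.92% and the 4 CYP2 members 1.71%.

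**Figure D1:**
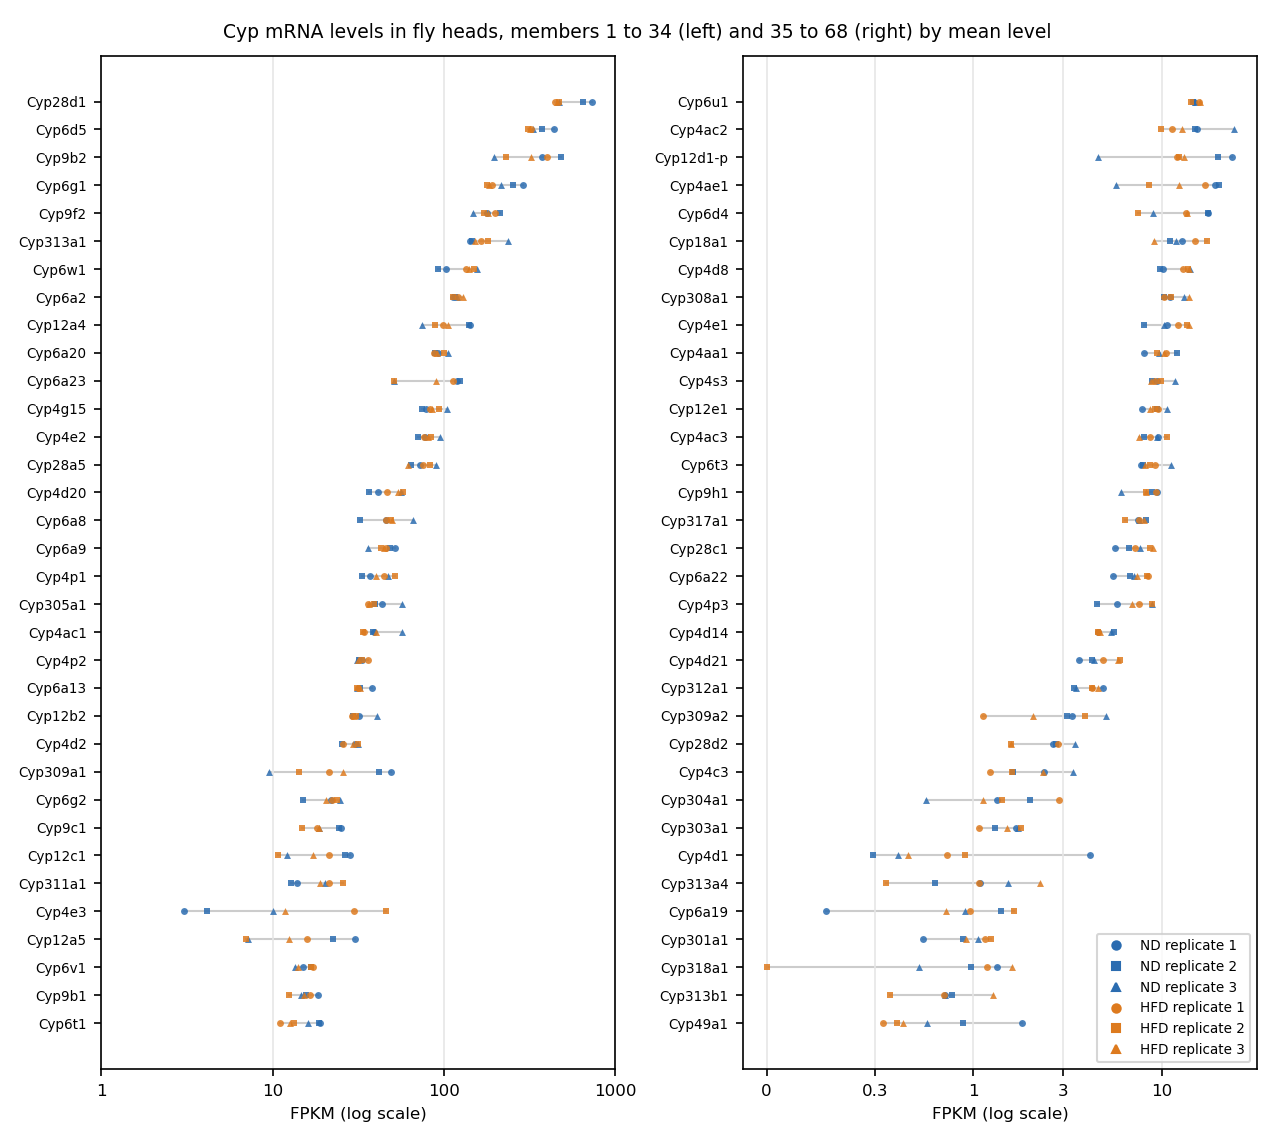
FPKM of the 68 tested members on a log axis, ordered by mean level, with 1 point per sample (ND blue, HFD orange, symbols by replicate) and a grey line over the range. Cyp28d1 is at the top with 446 to 733 FPKM, most members lie between 1 and 100 FPKM, and Cyp318a1 is at 0 in HFD replicate 2.

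Cyp28d1, which contributes to nicotine resistance in flies, was the most abundant member. It lies on chromosome arm 2L from 5210460 to 5212445 in the BDGP6 assembly, on the plus strand with 6 exons. Its levels were 733, 652 and 469.5 FPKM in the ND samples and 446, 467.5 and 456 FPKM in the HFD samples. It was the only member of the 10 whose range did not overlap that of the next in order, Cyp6d5, and there the gap was narrow, with a lowest value of 446 FPKM against a highest of 440.3 FPKM. Its exons share 51 nt with CG7742 on the opposite strand, which had 2.67 to 4.88 FPKM.

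Cyp6d5, on arm 3R from 14029228 to 14031483, followed, at 440.3, 374 and 332 FPKM on ND and 323, 308.3 and 319 FPKM on HFD. Cyp9b2 had 351 ± 144 FPKM on ND and 318.3 ± 86.2 FPKM on HFD (mean ± SD, n = 3 in each), with its lowest values in ND replicate 3 and HFD replicate 2. Cyp6g1, whose overexpression gives resistance to DDT and neonicotinoids, had 253 ± 38.4 and 184 ± 6.03 FPKM in the same order. From Cyp6d5 down, the ranges of neighbours in this order overlapped at every step.

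Cyp9f2 had 179 ± 31.4 FPKM on ND and 183 ± 13.5 FPKM on HFD (n = 3 in each, here and in the rest of the order). Cyp313a1 had 175 ± 54.2 and 166 ± 14.0 FPKM, with its highest value of 237 FPKM in ND replicate 3. Both genes overlapped between the diets. Cyp6w1, linked to DDT tolerance, had 117 ± 34.3 and 142 ± 8.03 FPKM. Cyp6a2, another enzyme that can metabolise DDT, had 116 ± 2.54 and 121 ± 7.49 FPKM. The 6 samples of Cyp6a2 were among the closest of the family. Cyp12a4, a mitochondrial enzyme tied to lufenuron resistance, had 119 ± 38.1 and 97.8 ± 8.39 FPKM. Cyp6a20, a gene known for its effect on male aggression, had 95.2 ± 8.94 and 93.0 ± 6.89 FPKM. None of the 6 separated the diets.

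The hydrocarbon branch was split between its 2 members. Cyp4g1, the oxidative decarbonylase that makes cuticular hydrocarbons in oenocytes, lies on X from 467057 to 469335 in 1 exon. It measured 0.0925, 1.13 and 0.0429 FPKM on ND and 0.293, 0.164 and 0.0373 FPKM on HFD, which corresponds to about 1 to 21 fragments per sample. Its values in these heads were at or near the detection limit in 5 samples, beside the 2 oenocyte markers with values, which were at or near 0. Cyp4g15, its paralogue, on X from 11477058 to 11483233, had 78.1, 74.1 and 104 FPKM on ND and 83.5, 93.5 and 85.4 FPKM on HFD. The Cyp4g15 values of the diets overlapped, and the highest was that of ND replicate 3.

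Hormone-related members were expressed at moderate levels. Cyp18a1, which inactivates ecdysteroids by 26-hydroxylation, had 12.7, 10.98 and 11.8 FPKM on ND and 15.0, 17.3 and 9.04 FPKM on HFD. HFD samples lay on both sides of the ND values. Cyp6g2, which is expressed in the gland that makes juvenile hormone, had 21.99, 15.1 and 24.9 FPKM on ND and 22.2, 23.6 and 20.4 FPKM on HFD. Cyp6t3, which takes part in ecdysone synthesis in larvae, had 7.77, 7.92 and 11.1 FPKM on ND and 9.12, 8.66 and 8.11 FPKM on HFD. The groups overlapped for both. The P450s of the ecdysone pathway that carry Halloween names (phtm, dib, sad, shd, spo and spok), which are outside the symbol rule, summed to 1.13 to 1.71 FPKM on ND and 0.532 to 1.34 FPKM on HFD. None of the 6 reached the filter, and dib was listed at 0 in all samples.

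Members with roles in sensory organs, cuticle and sex-specific tissue were lower. Cyp303a1, needed for sensory bristle development, had 1.57 ± 0.231 FPKM on ND and 1.45 ± 0.365 FPKM on HFD (n = 3 in each). Cyp301a1, needed for adult cuticle, had 0.824 ± 0.263 and 1.10 ± 0.171 FPKM. Both overlapped between the diets and rested on few fragments. Cyp303a1 also shares 919 nt of exon with the oppositely oriented gene heix. The counting is not stated to use strand, so reads from such partners cannot be told apart.

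The remaining xenobiotic members ranged from abundant to nearly absent. Cyp6a8, an inducible P450 of resistant strains, had 45.9, 32.5 and 66.3 FPKM on ND, which spanned its HFD values of 46.0, 48.8 and 49.6 FPKM. Cyp28d2, next to Cyp28d1 in the genome, had 2.95 ± 0.441 FPKM on ND and 1.99 ± 0.704 FPKM on HFD (n = 3 in each), so the means of these neighbours were 2.47 and 537 FPKM over all samples. Cyp12d1-p and Cyp12d1-d are near-identical copies, and how their reads were divided is uncertain. Cyp12d1-p had 23.4, 19.9 and 4.59 FPKM on ND and 11.9, 12.2 and 13.1 FPKM on HFD, in the first of its several rows. ND replicate 3 lay below the HFD samples and the other 2 ND samples above them. Cyp12d1-d stayed at or below 0.108 FPKM except for 1.14 FPKM in ND replicate 2. Cyp6d2, linked to camptothecin tolerance, had 0.954, 0.836 and 0.166 FPKM on ND and 0.507, 0 and 0.330 FPKM on HFD.

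Levels of genes that lie side by side were far apart in some runs and close in others. In the BDGP6 annotation the members fell on 2L (12), 2R (32), 3L (6), 3R (15) and X (14), and 27 of them formed 7 runs of at least 3 members with gaps of at most 20 kb. The largest run, 8 members on 2R from 14871366 to 14903095, held Cyp6a20 at 94.1 FPKM, Cyp6a23 at 91.4, Cyp6a8 at 48.2, Cyp6a9 at 44.9, Cyp317a1 at 7.51, Cyp6a22 at 7.24, Cyp6a19 at 0.964 and Cyp6a17, a gene known for its effect on temperature preference, at 0. Cyp6a17 and Cyp6a23 are close paralogues, so their levels are uncertain if reads were shared. On opposite strands, Cyp6a19 shares 397 nt of exon with Cyp6a9, and Cyp317a1 shares 1331 nt with Kank. Cyp6g1 averaged 218 FPKM beside Cyp6g2 at 21.4 and Cyp6t3 at 8.77. Cyp4ac1 averaged 40.4 FPKM beside Cyp4ac2 at 14.7 and Cyp4ac3 at 8.96. Cyp4p2 and Cyp4p1 were closer, at 32.9 and 42.4 FPKM, beside Cyp4p3 at 7.06. The run of Cyp313a5, Cyp313a2 and Cyp313a3 on 3R stayed below 0.05 FPKM on average, while Cyp313a1 of the same subfamily averaged 170.4 FPKM.

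**Figure D2:**
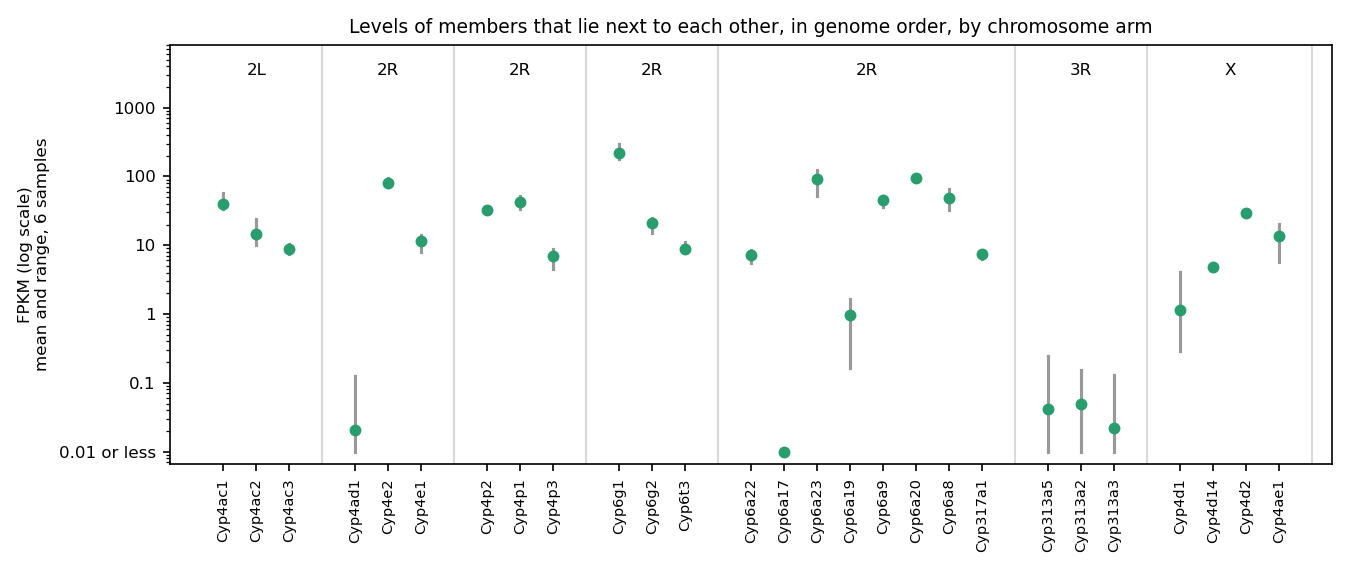
Mean FPKM (points, log axis) and range over the 6 samples (lines) for the 27 members in runs of neighbours, in genome order and grouped by chromosome arm. In the 8-member run on 2R, levels go from 0 for Cyp6a17 to 94.1 FPKM for Cyp6a20.

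The members varied more between samples than most genes did. Among the 53 members with a mean of at least 5 FPKM, the median ratio of the highest to the lowest sample was 1.58, against 1.36 over 6474 genes at that level. It was below 1.5 in 43.4% of the members and 69.5% of the genes. The closest samples were those of Cyp6u1 (a ratio of 1.118), Cyp6a2 (1.13) and Cyp4p2 (1.17). The widest were those of Cyp4e3 (15.2), Cyp309a1 (5.14), Cyp12d1-p (5.11), Cyp12a5 (4.29) and Cyp4ae1 (3.54). These 5 were the members over a ratio of 3, a share of 9.43%, beside 7.43% of the genes. These ratios include any difference between the diets, and no test was made of them.

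Between the diets, no member passed the test after adjustment. The comparison used limma on log2(FPKM + 1) over all 8362 genes with Benjamini-Hochberg adjustment, and because of the added 1 the differences of low genes come out smaller than their ratios. The lowest adjusted p of a member was 0.436, for Cyp6t1. By the same rule 2 genes (0.0239%) were called higher and 2 (0.0239%) lower among all genes. At an unadjusted p under 0.05, 3 of 68 members (4.41%) were higher on HFD, beside a background of 3.11% of all genes, and 4 (5.88%) were lower, beside 3.6%. The 3 HFD samples lay above the 3 ND samples for 4 members (5.88%), beside 4.54% of all genes, and below them for 8 (11.8%), beside 8.07%. With median-ratio scaling 6 members (8.82%) were higher at an unadjusted p under 0.05, beside 4.52% of all genes, and 4 (5.88%) were lower, beside 2.95%. With that scaling 7 members (10.3%) lay above, beside 7.1% of all genes, and 5 (7.35%) below, beside 5.91%. The median log2 difference of the members was -0.025, against -0.027 over all genes, and 42.6% of the members lay above 0, against 42.8%.

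**Figure D3:**
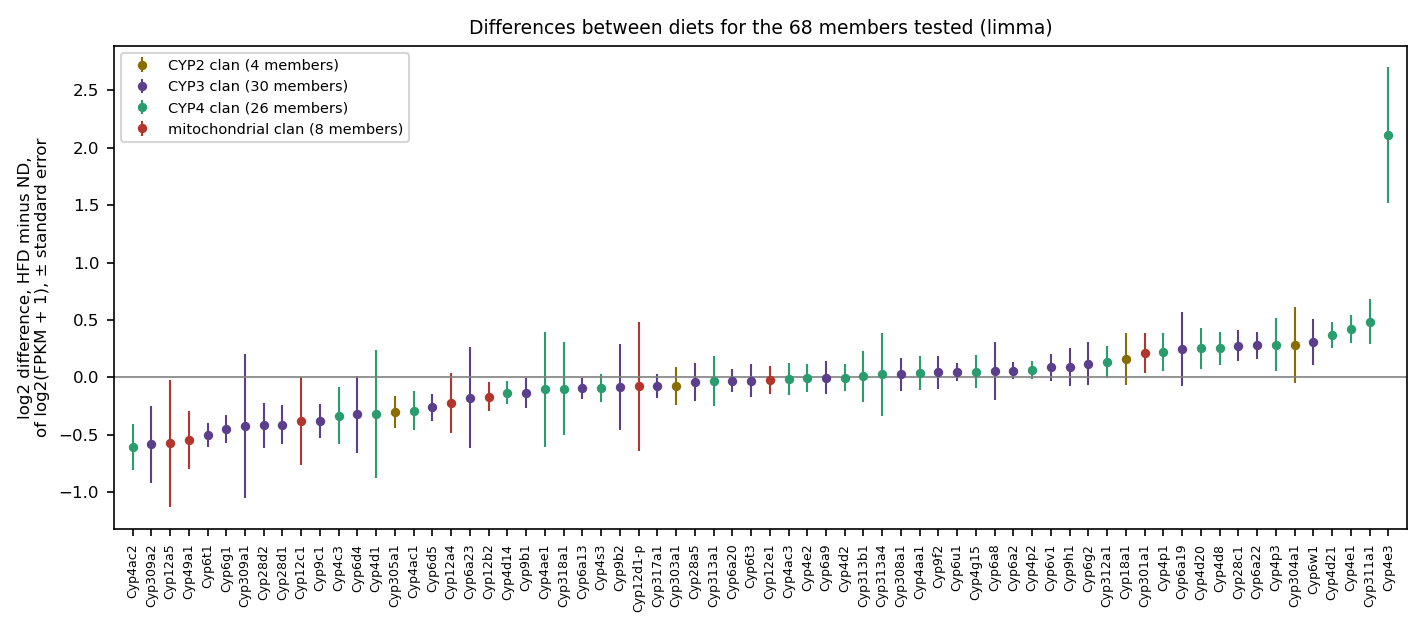
Log2 difference (HFD minus ND) of log2(FPKM + 1) with its limma standard error for the 68 tested members, ordered by size and coloured by clan. The other members lie between -0.60 and 0.49, and Cyp4e3 stands apart at 2.11.

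Cyp4e3, which affects permethrin tolerance in the fly's renal tubules, had the largest difference of the family. It lies on 2L from 9747839 to 9750071, on the minus strand with 6 exons. Its levels were 3.02, 4.14 and 10.1 FPKM on ND and 30.0, 45.7 and 11.8 FPKM on HFD, about 52 to 483 fragments per sample. All HFD samples lay above all ND samples, but HFD replicate 3 and ND replicate 3 were close to each other. The ratio of the means was 5.07 and the log2 difference 2.11 (SE 0.59; limma unadjusted p = 0.0121, adjusted p = 0.525; two-sided exact permutation test p = 0.1, the smallest that 3 against 3 samples can give). Leaving out 1 sample at a time gave ratios from 3.63, without HFD replicate 2, to 8.15, without ND replicate 3. Cyp4e3 was the only member past an unadjusted p of 0.05 with a ratio of over 2, a pair of criteria met by 0.682% of all genes in that direction. None met them in the other direction, beside 0.431% of all genes.

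Cyp4e1, of the same subfamily but on 2R from 8447451 to 8449745, had 10.6, 8.02 and 10.3 FPKM on ND and 12.2, 13.5 and 13.9 FPKM on HFD. The groups did not overlap. Their log2 difference was 0.42 (SE 0.12; limma unadjusted p = 0.0145, adjusted p = 0.550). The annotated exons of Cyp4e1 share 82 nt with the maltase gene Mal-A1 on the opposite strand. Cyp4e2, the neighbour of Cyp4e1, had 81.3 ± 12.6 FPKM on ND and 80.3 ± 3.83 FPKM on HFD (n = 3 in each), with overlapping groups.

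Cyp4d21, also called sxe1, is known for male-enriched expression in the fat body of the head. In these female heads it had 3.62, 4.27 and 4.33 FPKM on ND and 4.88, 5.97 and 5.85 FPKM on HFD. Every HFD sample lay above every ND sample. The log2 difference was 0.37 (SE 0.12; limma unadjusted p = 0.0187, adjusted p = 0.612), on about 58 to 125 fragments per sample. Beside it, the fat body marker Lsp2 had 306, 571 and 183 FPKM on ND and 63.0, 125 and 84.6 FPKM on HFD (limma unadjusted p = 0.00734, adjusted p = 0.473), the other fat body marker with values, fit, overlapped between the diets, and Yp2 and Yp3, of the 3 yolk protein genes made in female fat body, were higher on HFD at an unadjusted limma p of 0.0104 and 0.0069. The part of these tissues in the Cyp4d21 values was not tested.

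Cyp6a22, in the large run on 2R, had 5.49, 6.79 and 7.09 FPKM on ND and 8.39, 8.32 and 7.34 FPKM on HFD. The HFD samples lay above the ND samples, with a small gap between HFD replicate 3 and ND replicate 3. This gave a log2 difference of 0.28 (SE 0.12; limma unadjusted p = 0.0555, adjusted p = 0.736).

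Cyp6t1, a gene of 1 exon on X from 21517434 to 21519218, had the lowest p of the family. Its levels were 19.0, 18.5 and 16.04 FPKM on ND and 11.05, 13.3 and 12.5 FPKM on HFD. The lowest ND sample lay above the highest HFD sample. The log2 difference was -0.50 (SE 0.11; limma unadjusted p = 0.0033, adjusted p = 0.436; two-sided exact permutation test p = 0.1).

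Cyp6g1, on 2R from 12185667 to 12188431 with 4 exons, had 291, 252 and 215 FPKM on ND and 189.9, 178 and 183 FPKM on HFD. The HFD samples were close to each other and below all ND samples. The log2 difference was -0.45 (SE 0.12; limma unadjusted p = 0.0113, adjusted p = 0.522). Cyp6g2, which shares 94 nt of exon with Cyp6g1 on the opposite strand, did not separate the diets, as given above.

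Cyp4ac2, the middle gene of its run on 2L from 5266392 to 5268455, had 15.3, 15.0 and 23.9 FPKM on ND and 11.3, 9.92 and 12.7 FPKM on HFD. ND replicate 3 was the highest sample, and the groups did not overlap. This gave a log2 difference of -0.60 (SE 0.20; limma unadjusted p = 0.0246, adjusted p = 0.645). Its neighbour Cyp4ac1 had 44.8 ± 10.2 FPKM on ND and 36.0 ± 3.64 FPKM on HFD, and Cyp4ac3 had 8.99 ± 0.820 and 8.93 ± 1.52 FPKM (n = 3 in each), both with overlapping groups.

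Cyp9c1, on 2R from 24631063 to 24632923, had 25.1, 24.5 and 18.7 FPKM on ND and 18.2, 14.9 and 18.7 FPKM on HFD. The groups touched, since ND replicate 3 at 18.72 FPKM was just above HFD replicate 3 at 18.68 FPKM. Between the means on the log scale, the difference was -0.38 (SE 0.15; limma unadjusted p = 0.0452, adjusted p = 0.720). An antisense RNA gene, asRNA:CR43787, covers 1711 of the 1743 nt of its exons, and reads of the pair cannot be told apart without strand.

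The other members with all HFD samples below all ND samples were Cyp28d1, Cyp6d5, Cyp305a1 and Cyp49a1. Cyp28d1 and Cyp6d5, the most abundant of the family, had log2 differences of -0.41 (SE 0.17; limma unadjusted p = 0.0537) and -0.26 (SE 0.12; limma unadjusted p = 0.0653). For Cyp28d1 the gap between the groups was that of ND replicate 3 at 469.5 FPKM and HFD replicate 2 at 467.5 FPKM. Cyp305a1, of the CYP2 clan, had 43.5, 39.7 and 56.8 FPKM on ND and 35.9, 39.1 and 36.7 FPKM on HFD, with a log2 difference of -0.30 (SE 0.14; limma unadjusted p = 0.0786). Cyp49a1, of the mitochondrial clan, had 1.81, 0.878 and 0.568 FPKM on ND and 0.333, 0.393 and 0.424 FPKM on HFD. Its values rested on about 3 to 29 fragments per sample, with a log2 difference of -0.55 (SE 0.25; limma unadjusted p = 0.0724), and the ratio of its means was 0.353, or 0.530 without ND replicate 1. The adjusted p of these 4 lay between 0.736 and 0.794.

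**Figure D4:**
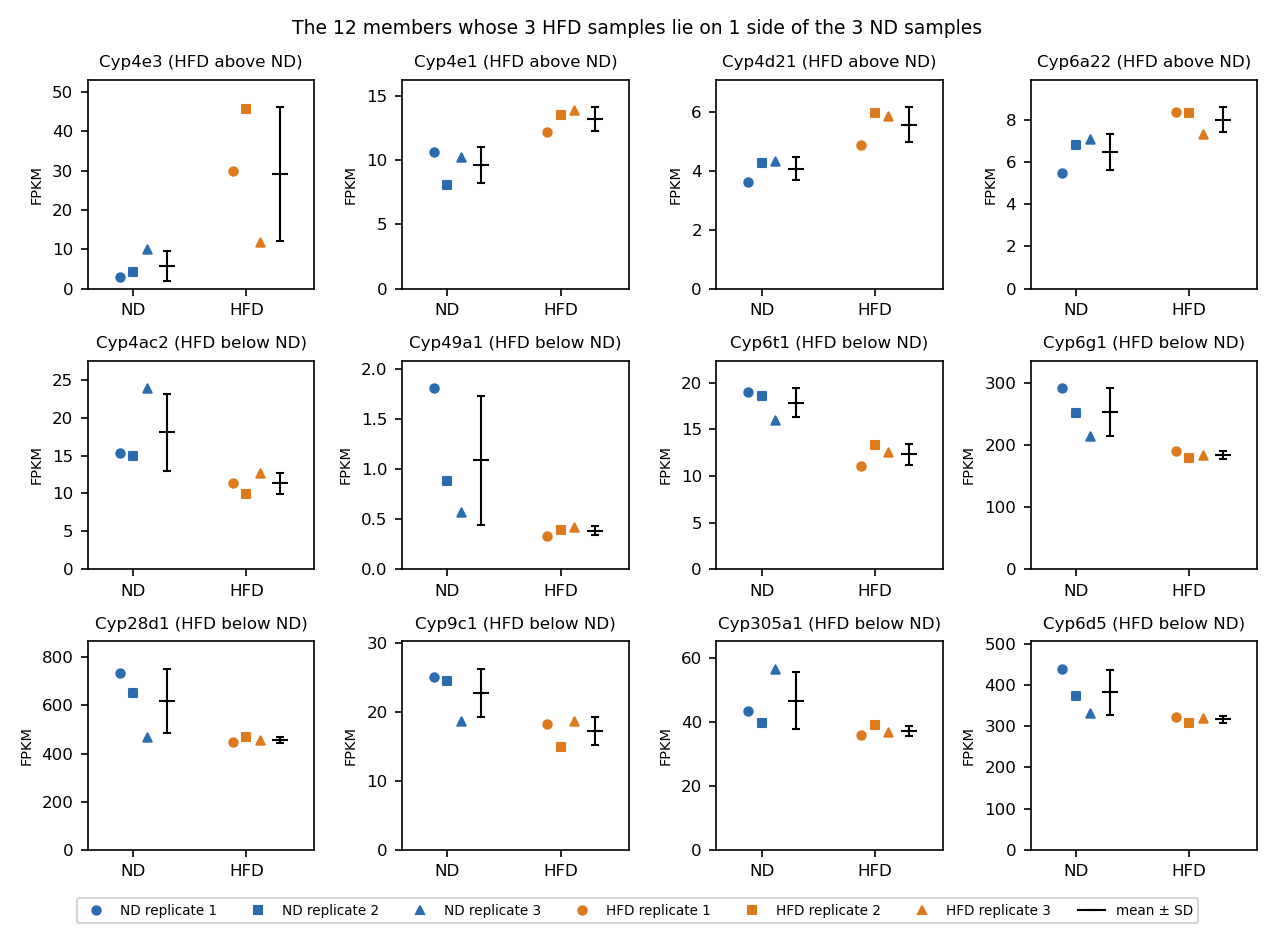
FPKM in each sample of the 12 members whose diet groups did not overlap (ND blue, HFD orange), with the mean and SD of each group in black and each axis starting at 0. The gap between the groups is wide for Cyp4e3 in 2 of 3 HFD samples and for Cyp6t1, and narrow for Cyp9c1 and Cyp28d1.

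The summed level of the family was 3818, 3671 and 3225 FPKM on ND and 3318, 3112 and 3188 FPKM on HFD. ND replicate 3 lay among the HFD samples. The ratio of the means was 0.898, and 0.856 without ND replicate 3. By clan, the ratio was 0.870 for CYP3, 1.04 for CYP4, 0.804 for the mitochondrial clan and 0.884 for CYP2. Without ND replicate 3 the clan ratios were 0.805, 1.16, 0.693 and 0.959 in that order. All 3 members called higher at an unadjusted p under 0.05 were of the CYP4 clan, and of the 4 called lower 3 were of the CYP3 clan and 1 of the CYP4 clan. The CYP4 clan had 26 of the 68 tested members and the CYP3 clan 30. Among all genes, 3.11% were called higher and 3.6% lower. Log2 differences lay above 0 for 14 of the 26 CYP4 members and 12 of the 30 CYP3 members, beside 42.8% of all genes. No test was made of differences between clans. In family 12, a group of mitochondrial enzymes, 6 of 6 tested members had a log2 difference below 0, beside 4783 of all 8362 genes. The 6 differences went from -0.57 to -0.02, with none at an unadjusted p under 0.05. With median-ratio scaling, quantile normalization, summed rows, the digestive enzyme covariate or some samples left out, 5 of 6 lay below 0. ND replicate 3 and HFD replicate 2 were the lowest samples of Cyp12a4, Cyp12a5 and Cyp12c1. In families 4, 6, 9 and 28 the differences lay on both sides of 0.

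The counts depended on ND replicate 3, the sample almost without midgut transcripts. Without it, 11 members were higher on HFD at an unadjusted p under 0.05 (16.2%, beside 6.86% of all genes) and 12 were lower (17.6%, beside 5.67%), and none passed after adjustment. The 12 lower members added Cyp12a4, Cyp12a5, Cyp12c1, Cyp12d1-p, Cyp309a1, Cyp28d1, Cyp6d5 and Cyp49a1 to the 4 called with all samples. The 11 higher members added Cyp6w1, Cyp311a1, Cyp4d8, Cyp4d20, Cyp4p1, Cyp4p3, Cyp28c1 and Cyp6a22 to the 3 called with all samples. The lowest unadjusted p was then that of Cyp12d1-p, with a log2 difference of -0.75 (SE 0.10; limma unadjusted p = 0.000641, adjusted p = 0.101), against -0.08 with all samples. Cyp28d1 then had -0.60 (SE 0.08; limma unadjusted p = 0.000722, adjusted p = 0.106) and Cyp6w1 0.53 (SE 0.09; limma unadjusted p = 0.00175, adjusted p = 0.142). The values of Cyp12d1-p here are those of the first of its several rows. With its rows summed, its log2 difference over all samples was 0.046. Without both ND replicate 3 and HFD replicate 2, 7 members were higher (10.3%, beside 6.02% of all genes) and 14 lower (20.6%, beside 6.42%). With the summed digestive enzyme level as a covariate, the counts were 11 higher (16.2%, beside 7.16%) and 14 lower (20.6%, beside 6.64%). On the log2 scale this covariate was 6.21 in ND replicate 3 and 12.5 to 14.3 in the other samples. The fit therefore came near to leaving ND replicate 3 out, and its 11 higher members were the same. The part of gut tissue in these differences was not tested. The digestive enzymes summed to 73.2 FPKM in ND replicate 3 and to at least 5740 FPKM in each of the others.

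The samples that stood apart did so in the family as well. ND replicate 3 and HFD replicate 2 were the 2 lowest samples for 13 members (19.1%), beside 12.2% of all genes, and the 2 highest for 14 (20.6%), beside 23.4%. ND replicate 3 was the lowest sample for 11 members (16.2%), beside 11.9%, and the highest for 20 (29.4%), beside 38.7%. Cyp309a1 had 9.49 FPKM in ND replicate 3 and 14.2 FPKM in HFD replicate 2, against 21.3 to 48.8 FPKM in the other 4 samples. Cyp12a5 had 7.20 and 7.03 FPKM in these 2 samples, against 12.5 to 30.2 FPKM. Cyp6a23 had 51.4 and 51.2 FPKM, against 89.4 to 124 FPKM. These genes were low in 1 sample of each diet. Cyp313a1 was highest there, with 237 and 181 FPKM against 142 to 165 FPKM. No member was in ND replicate 3 below 0.25 times the lowest of the other 5 samples, although the trypsin and amylase genes of the midgut list were.

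**Figure D5:**
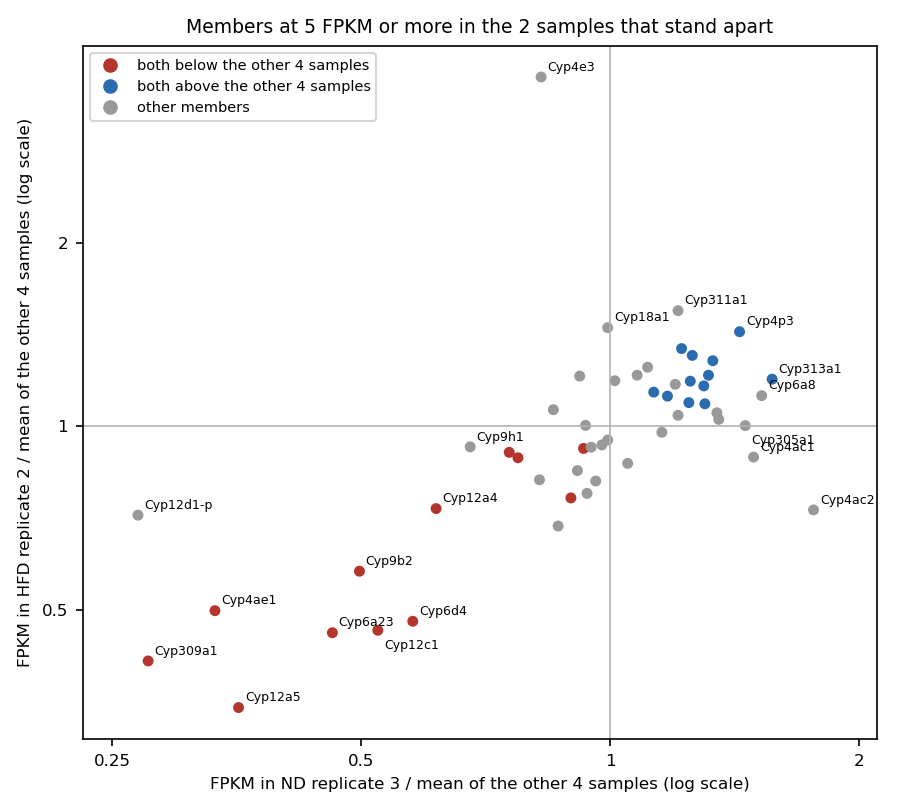
Level in ND replicate 3 (x axis) and in HFD replicate 2 (y axis), each divided by the mean of the other 4 samples, on log axes, with 1 point per member at 5 FPKM or more in those 4. Cyp309a1, Cyp12a5, Cyp4ae1 and Cyp6a23 are low in both samples, Cyp12d1-p is low mainly in ND replicate 3, and Cyp4e3 is high only in HFD replicate 2 of the pair.

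The partners and surroundings of the family were also examined. Of 6 redox partners 4 had values, and none reached an unadjusted p under 0.05. Cyt-b5-r, a cytochrome b5 related protein, had 401 ± 43.2 FPKM on ND and 382 ± 15.1 FPKM on HFD, and Cpr, the reductase that passes electrons to microsomal P450s, had 114.8 ± 2.14 and 122.8 ± 11.6 FPKM (n = 3 in each). Of 8 heme synthesis genes 7 were tested, and 1 was lower at an unadjusted p under 0.05, beside 3.6% of all genes. That was Ppox, protoporphyrinogen oxidase, with 9.26, 8.11 and 7.63 FPKM on ND and 6.47, 6.11 and 6.63 FPKM on HFD (log2 difference -0.33, SE 0.10; limma unadjusted p = 0.0142, adjusted p = 0.549). Alas, which makes the first committed intermediate, overlapped between the diets at 57.0 ± 1.90 and 56.0 ± 1.05 FPKM (n = 3 in each). Of 13 genes of the hydrocarbon pathway 5 had values and 3 were tested. Among these 1 was higher at an unadjusted p under 0.05, beside 3.11% of all genes. It was Sc2, an enoyl-CoA reductase of fatty acid elongation, with 68.2, 69.9 and 65.4 FPKM on ND and 79.6, 78.6 and 83.2 FPKM on HFD (log2 difference 0.24, SE 0.07; limma unadjusted p = 0.0114, adjusted p = 0.523). None of the 9 xenobiotic regulators reached an unadjusted p under 0.05. The lowest was that of Keap1, the repressor of the CncC stress factor, which had 5.33 ± 0.771 FPKM on ND and 6.87 ± 0.944 FPKM on HFD (n = 3 in each; limma unadjusted p = 0.0694), and cnc itself had 66.5 ± 5.06 and 52.1 ± 11.4 FPKM (limma unadjusted p = 0.0758).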

How the data were processed

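Poly(A) RNA of 6 head samples was sequenced by the authors, who deposited FPKM per gene for each sample. The submitters' processing notes name HISAT. Its version, the counting tool and the genome build were not given in the sources used here, and names and positions were taken from the FlyBase identifiers and the BDGP6 annotation of Ensembl release 115. Where an identifier had several rows, the first was used (101 identifiers of 11922; Cyp12d1-p among the members). Of the 85 symbols in the name table that fit the rule, 79 had values; the other 6 were not analysed here. Protein and promoter sequences were not used here.

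FPKM were tested as log2(FPKM + 1) in genes whose mean reached 0.5 FPKM, HFD against ND, with limma 3.58.1 (lmFit, eBayes with trend) in R 4.3.3 and Benjamini-Hochberg adjustment over 8362 genes, after a test on simulated data. A two-sided exact permutation test over 20 assignments cannot go below p = 0.1. Depth was estimated from FPKM steps in 6033 genes; 63.9% to 71.1% of low values lay within 0.15 fragments of a whole number (30% by chance). Intervals of counting error were not given. The study calls the 3 samples of a diet biological replicates; the sources do not say whether their flies were reared apart, so p-values measure the spread between these samples. Members were assigned to clans by family number from general knowledge, not from a file. Named members were the 10 most abundant, those at an unadjusted p under 0.05, those on role lists, and, chosen after their values were seen, those with separated groups or that stood out otherwise. Members and lists were chosen with earlier results of these data known. Alternatives were another pseudocount (0.1), other filters (none, 5 FPKM), median-ratio scaling, quantile normalization, no trend, a replicate block, samples left out, a digestive enzyme covariate and summed rows.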

Additional observations from a re-analysis of the deposited data

How the results depend on the processing

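Of the 68 members, 0 passed an adjusted p under 0.05 in limma with all samples and under each of the alternatives run, against 3 higher and 4 lower at an unadjusted p. With median-ratio scaling 6 were higher, 7 had separated groups above and 5 below. With the digestive enzyme covariate 11 were higher and 14 lower. Without ND replicate 3 and HFD replicate 2 together, 7 were higher and 14 lower, and 18 lay above (26.5%, beside 22.7% of all genes) and 19 below (27.9%, beside 22.3%). Leaving out 1 sample at a time gave 4 to 16 above and 9 to 18 below. Fewer samples separate more often by construction. Without ND replicate 3, which gave the highest count of each, 23.5% lay above (beside 18.9% of all genes) and 26.5% below (beside 16.8%). Without HFD replicate 3 the 9 above were 13.2% (beside 8.73%), and 17.6% lay below (beside 11.8%). Leaving out ND replicate 1, ND replicate 2, HFD replicate 1 or HFD replicate 2 gave 5.88% to 8.82% above (beside 5.66% to 6.55%). The shares below were then 13.2%, 14.7%, 13.2% and 13.2% in that order, beside 12.4%, 13.8%, 14.5% and 13.2% of all genes. The median log2 difference of the members lay between -0.077 and 0.013 and changed sign within the spread, and the ratio of summed FPKM lay between 0.856 and 0.930. None of the 12 members with separated groups reversed. Leaving out samples could not have reversed them, because groups that do not overlap stay apart in any subset. Under median-ratio scaling, the groups of Cyp28d1, Cyp6d5 and Cyp9c1 were no longer separated. Cyp4e3, Cyp6t1 and Cyp6g1 kept an unadjusted p under 0.05 in 17 of 17 settings, Cyp4e1 in 16, Cyp4ac2 in 15, Cyp4d21 in 12 of 16 and Cyp9c1 in 8 of 17. With the replicate number as a block, no member passed an adjusted p under 0.05. Deviations of same-numbered samples correlated at 0.31, -0.51 and -0.36, and those of ND replicate 3 and HFD replicate 2 at 0.55. Because these 2 samples stood apart, the correlations cannot show whether the numbers mark a shared batch. The samples were treated as unpaired. Low members were limited by depth, with about 1 to 21 fragments for Cyp4g1 and 3 to 29 for Cyp49a1.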

Other observations

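A few low members had 1 sample above the rest. Cyp4d1 measured 4.14 FPKM in ND replicate 1 and 0.29 to 0.90 FPKM in the other 5 samples. Cyp4g1 measured 1.13 FPKM in ND replicate 2 and at most 0.293 FPKM elsewhere, and Cyp12d1-d measured 1.14 FPKM in that same sample and at most 0.108 FPKM elsewhere. Cyp311a1, which was not among the genes named by rule, had 13.8, 12.9 and 20.2 FPKM on ND and 21.4, 25.9 and 18.8 FPKM on HFD. ND replicate 3 lay within the range of the HFD samples, and the log2 difference was 0.49 (SE 0.20; limma unadjusted p = 0.0521, adjusted p = 0.736).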
